A study of Homo sapiens with 8 samples.

Results

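The integrin and laminin subunit genes were followed in brain organoids that had lost most of their FABP7 transcript. Members were defined by gene symbol, as every ITGA, ITGB, LAMA, LAMB and LAMC gene of the family nomenclature. This choice was made with earlier results of these data known. Of the 38 symbols so defined, 36 were in the deposited table of 17504 genes. ITGAX and ITGAD, which encode alpha chains of leukocyte integrins, were not analysed here. The members comprised 24 integrin genes (16 alpha and 8 beta chains) and 12 laminin genes (5 alpha, 4 beta and 3 gamma chains).

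Bulk RNA was sequenced from organoids at day 30 grown from IMR90-4, a human induced pluripotent stem cell line, with 3 control libraries of wild-type genotype and 3 libraries of FABP7 knockdown. The labels name the same cell line for both groups and do not say how many clones or organoids a library holds. The knockdown method is not given in the labels, and the series text speaks of adipogenic differentiation although title, tissue and cell type describe neural organoids. Whether replicates came from separate cultures is unstated, so the p-values reflect library-to-library spread alone and that spread may be technical. Estimated counts summed to between 13424959 and 15675888 per library, and a floor of 3 counts corresponded to 0.188 to 0.217 CPM (counts scaled to library size with TMM factors). FABP7, the targeted fatty acid binding protein, was read 3123, 2650 and 2850 times in control libraries, against 14, 15 and 16 times after knockdown. All 12 radial glia markers and all 12 neuron markers examined passed the filter on low counts, so the defining markers of the labelled neural tissue were present.

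Integrins are receptors built from an alpha and a beta chain that tie the cytoskeleton to the extracellular matrix, and laminins are trimers of an alpha, a beta and a gamma chain that form the core sheet of basement membranes. In the developing cortex the basal process of a radial glial cell ends in an endfoot on the pial basement membrane, and integrins that contain ITGB1 bind the laminin there together with dystroglycan. Integrin ITGAV paired with ITGB8 is known for activating latent TGF-beta, and in mice its loss from neural cells disturbs brain vessels. In mice, loss of ITGB1 from the developing brain disturbs the anchorage of these endfeet.

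The 250 bases before a transcript start listed by RefSeq on GRCh38.p14 are printed for 5 members, as a description with no test of letters against direction. Of the 20 members with enough counts to test, 16 had such an entry, and where several starts were listed (2 each for ITGB1, ITGAV and ITGA6, and 3 for ITGB5) the most upstream was taken. The start listed for ITGB8 lies inside the annotated gene, which spans chr7:20329766-20415754, so its window is not the sequence before the gene. The windows of LAMA3 and LAMA4, counted among the 16, likewise lie inside their annotated genes. ITGB1, ITGAV, ITGB8 and LAMB2 were the genes that rose, and LAMC1 was a laminin gene that fell.
ITGB1 (chr10:32958231-32958480, minus strand): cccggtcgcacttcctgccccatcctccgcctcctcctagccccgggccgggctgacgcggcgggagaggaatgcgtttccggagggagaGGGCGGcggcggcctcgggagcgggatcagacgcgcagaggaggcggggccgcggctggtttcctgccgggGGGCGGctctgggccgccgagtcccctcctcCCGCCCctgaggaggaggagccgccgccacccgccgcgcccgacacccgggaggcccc
ITGAV (chr2:186589806-186590055, plus strand): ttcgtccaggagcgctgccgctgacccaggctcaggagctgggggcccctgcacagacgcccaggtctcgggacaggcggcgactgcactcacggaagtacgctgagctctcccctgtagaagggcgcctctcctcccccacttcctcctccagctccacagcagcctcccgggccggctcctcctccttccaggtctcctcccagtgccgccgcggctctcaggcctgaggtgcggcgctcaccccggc
ITGB8 (chr7:20330650-20330899, plus strand): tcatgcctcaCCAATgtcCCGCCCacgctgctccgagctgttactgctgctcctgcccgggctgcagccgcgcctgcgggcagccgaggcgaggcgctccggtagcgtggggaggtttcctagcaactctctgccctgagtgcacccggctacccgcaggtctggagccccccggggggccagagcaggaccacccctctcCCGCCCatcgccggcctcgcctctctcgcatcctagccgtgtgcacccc
LAMB2 (chr3:49133051-49133300, minus strand): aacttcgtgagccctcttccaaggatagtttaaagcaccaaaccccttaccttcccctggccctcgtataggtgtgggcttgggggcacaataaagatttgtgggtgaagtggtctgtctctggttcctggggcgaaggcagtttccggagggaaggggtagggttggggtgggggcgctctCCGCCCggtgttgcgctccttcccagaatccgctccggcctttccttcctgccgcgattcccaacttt
LAMC1 (chr1:183023170-183023419, plus strand): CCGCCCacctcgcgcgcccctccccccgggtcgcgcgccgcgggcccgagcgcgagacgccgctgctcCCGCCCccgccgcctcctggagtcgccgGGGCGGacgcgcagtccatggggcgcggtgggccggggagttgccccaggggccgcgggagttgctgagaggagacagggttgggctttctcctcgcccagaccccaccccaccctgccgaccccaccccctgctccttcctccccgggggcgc
Capitals mark the GC box (GGGCGG or its complement CCGCCC) and the CCAAT box (CCAAT or ATTGG), searched on both strands, with no overlap between the motifs. The ITGB1 window held 3 GC boxes, LAMC1 held 3, ITGB8 held 2, LAMB2 held 1 and ITGAV held 0, and the only CCAAT box was in ITGB8. Over all 16 members with an entry, 10 held a GC box, against 66.65% of 11039 windows of tested genes, and 2 held a CCAAT box, against 35.27%. Among the other members called lower that had an entry, the window held 4 GC boxes for ITGA2, 0 for ITGA6, 2 for ITGB5, 5 for LAMA5 and 4 for LAMB1. So few windows cannot show whether these letters differ between genes that rose and genes that fell. CpG dinucleotides numbered 32 in ITGB1 and in LAMC1, 21 in ITGB8, 18 in ITGAV and 12 in LAMB2.

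The members changed in both directions and mostly by small amounts. Of the 36 members 20 passed the filter on low counts, and 12 of the 16 others stayed under 10 counts in every library. Of the 20 tested members, 4 rose, 8 fell and 8 were not called (edgeR quasi-likelihood test, Benjamini-Hochberg adjusted over 13468 genes). Over all tested genes 51.7% passed the same threshold, 26.4% higher and 25.3% lower, so a call by itself did not set a member apart from other genes. The median log2 fold change was -0.18 for the 20 tested members and -0.0052 for all tested genes. Integrins had 3 higher and 4 lower of 12 tested, with a median of -0.13, and laminins 1 higher and 4 lower of 8 tested, with a median of -0.24. In 10 of the 20 tested members the values of both groups did not overlap, all of them called, and 57.3% of all tested genes were likewise separate. No member passed a test against a 1.5-fold change (edgeR glmTreat, 0 of 20, where 4.69% of all genes passed), although 2 members passed the same test at an unadjusted p of 0.05.

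Markers of the main cell types moved beside these results. Their calls stand beside 26.4% higher and 25.3% lower over all tested genes. Of the 12 neuron markers 11 fell (91.7%) and 0 rose, with summed levels of 5001 to 5081 CPM in control and 3791 to 3838 CPM in knockdown. STMN2, a microtubule regulator of growing axons, fell from 1731 to 1336 CPM and NEFL, a neurofilament chain, from 312 to 118 CPM. Of the 12 radial glia markers 3 rose (25%, near the share of all genes) and 6 fell (50%), with summed levels of 2405 to 2474 and 2359 to 2435 CPM. SOX2, which maintains neural progenitors, increased from 206 to 308 CPM, and VIM, the vimentin filament gene, fell from 1091 to 1021 CPM. In bulk libraries fewer cells of a type and less RNA per cell cannot be told apart, and the part of cell composition in the integrin and laminin values was not tested.

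**Figure D1:**
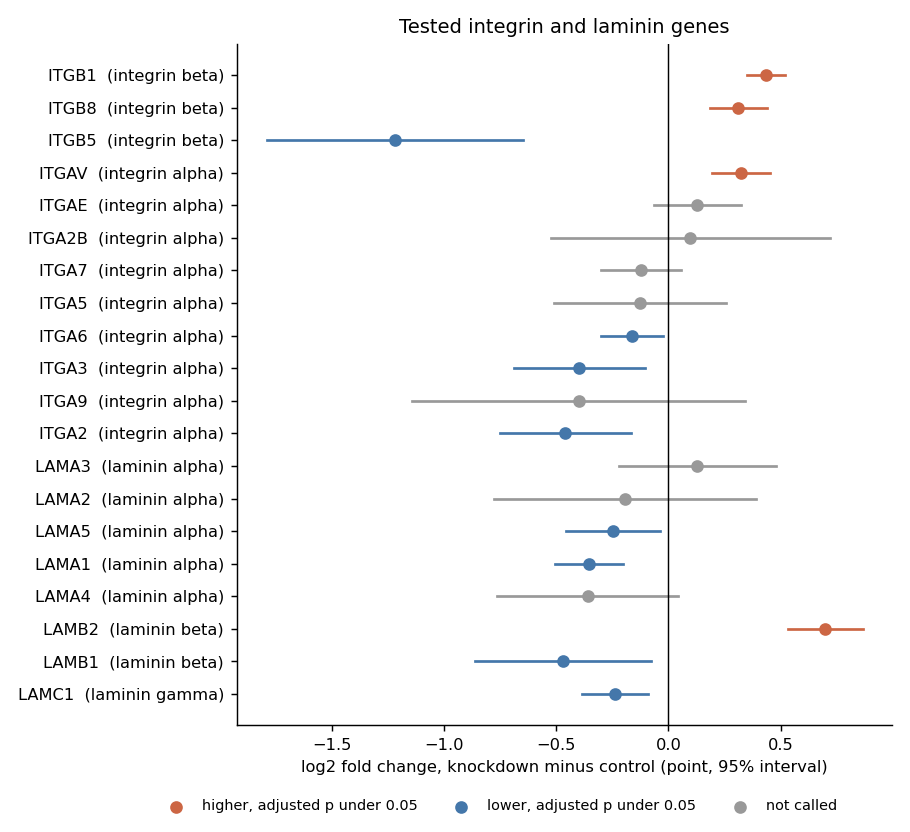
Log2 fold change (x axis, knockdown minus control) of the 20 tested members, listed by chain class, with lines for the 95% interval of the edgeR fit over 3 libraries a group. ITGB1, ITGB8, ITGAV and LAMB2 lie to the right of 0, and ITGB5 lies farthest to the left at -1.22.

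Among the beta chains, which set the family a receptor belongs to, ITGB1 was the dominant transcript and it rose. ITGB1, the partner of most laminin- and collagen-binding alpha chains, stood at 173.4, 173.5 and 181.7 CPM in the control libraries and at 235.0, 232.6 and 246.7 CPM in the knockdown libraries. The groups did not overlap, and every knockdown library exceeded the highest control. The increase was 1.35-fold (log2 fold change 0.43 ± 0.04 SE, edgeR adjusted p = 7.12e-09). The gene spans chr10:32900318-32958230 on GRCh38.p14, and a pseudogene, ITGB1P1, lies on chromosome 19, so its count is uncertain by any reads divided between them.

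ITGB8 and ITGB5 both encode partners of ITGAV, and they moved in opposite directions. ITGB8 measured 47.8, 47.1 and 54.5 CPM across the controls, against 58.5, 62.7 and 64.2 CPM after knockdown. Its knockdown libraries lay above the controls without overlap (log2 fold change 0.31 ± 0.06 SE, edgeR adjusted p = 0.000192). ITGB5, known for binding vitronectin, was low, with 35, 19 and 33 counts in control and 12, 13 and 12 in knockdown, or 2.20, 1.38 and 2.23 against 0.819, 0.878 and 0.798 CPM. The control libraries spread more widely than the knockdown libraries, whose values nearly coincided, and the groups did not overlap. ITGB5 fell by 1.22 on the log2 scale (SE 0.28, 95% interval -1.79 to -0.65, edgeR adjusted p = 0.00077), and a fall beyond 1.5-fold was not called (glmTreat adjusted p = 0.0777). This was the widest difference of any tested member and also one of the less precise.

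The other beta chains were near the floor. ITGB3, the platelet and endothelial partner of ITGAV, had at most 4.92 counts in any library. ITGB6, found in epithelia, had 1 count in control replicate 2 and 0 elsewhere, and ITGB4, the hemidesmosome chain that pairs with ITGA6, had at most 2 counts. ITGB2 and ITGB7, chains of leukocyte integrins, had at most 2 and 3 counts. None of these 5 could be tested, and at this depth a difference in them was not detectable.

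Among the alpha chains that recognise the RGD peptide of matrix proteins, ITGAV rose and the others did not pass the test. ITGAV stood at 69.6, 81.0 and 85.5 CPM across the controls, against 96.9, 95.7 and 103 CPM after knockdown. The controls were the more scattered group, yet the highest of them lay below the lowest knockdown library (log2 fold change 0.32 ± 0.06 SE, edgeR adjusted p = 0.000173). ITGA5, the fibronectin receptor chain, had 2.90 ± 0.358 and 2.65 ± 0.228 CPM (SD, n = 3 each), with a 95% interval of the log2 fold change from -0.51 to 0.26. ITGA2B, the platelet chain, had 13 to 27 counts per library and an interval from -0.52 to 0.72, so changes of a moderate size in either direction remain possible. ITGA8 had at most 4 counts and was not tested.

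On the TPM scale, which divides transcript abundance by length, the rises of ITGAV and ITGB8 were not called. The limma-trend test on log2(TPM + 1) gave ITGAV 0.13 (adjusted p = 0.161) and ITGB8 0.11 (adjusted p = 0.202), while ITGB1 kept 0.25 (adjusted p = 0.00116). That scale places the median log2 fold change over all genes at -0.16, so relative to it these members still lay on the higher side. The direction of ITGB1, ITGAV and ITGB8 was the same under every scaling tried.

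Of the 3 laminin-binding alpha chains, 2 fell and 1 was not called. ITGA6, a radial glial and stem cell laminin receptor chain, measured 31.9, 30.5 and 33.4 CPM across the controls, against 28.4, 28.4 and 28.9 CPM after knockdown. The groups did not overlap, but the gap was narrow, and ITGA6 fell by 0.16 on the log2 scale (SE 0.07, edgeR adjusted p = 0.0439). ITGA3, whose product also guides migrating cortical neurons in mice, measured 10.8, 12.2 and 8.64 CPM across the controls, against 7.16, 6.96 and 9.78 CPM after knockdown. Knockdown replicate 3 lay within the control range, and ITGA3 fell by 0.40 (SE 0.14, edgeR adjusted p = 0.0225). ITGA7, the muscle-type laminin receptor chain, had 17.2 ± 1.29 and 15.8 ± 0.891 CPM (SD, n = 3 each) and was not called (log2 fold change -0.12, 95% interval -0.30 to 0.06). The limma-trend test on log2(TPM + 1) placed it lower (-0.27, adjusted p = 0.0105), on a scale where the median over all genes was -0.16. BLOC1S1 overlaps ITGA7 on the other strand and rose from 8.05 to 11.5 CPM, and with strand use in the counting unstated the reads of the pair cannot be told apart.

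The calls of ITGA6 and ITGA3 were lost when single libraries were left out, and that of ITGA6 also in the DESeq2 Wald test (adjusted p = 0.129) and without a filter on low counts (0.0783). ITGA6 lost its call without control replicate 1 (edgeR adjusted p = 0.0812) or 3 (0.134), and likewise without knockdown replicate 1 (0.112), 2 (0.116) or 3 (0.0803). ITGA3 lost it without control replicate 2 (edgeR adjusted p = 0.0987) and without knockdown replicate 1 (0.104) or 2 (0.119). The log2 fold change stayed negative in each of these fits, from -0.20 to -0.13 for ITGA6 and from -0.57 to -0.29 for ITGA3 over the 6 fits that left out 1 library.

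Of the 4 collagen-binding alpha chains, ITGA2 was the only member with enough counts to test. It measured 7.47, 6.01 and 8.44 CPM across the controls, against 4.64, 5.68 and 5.65 CPM after knockdown. Control replicate 2 came close to the knockdown libraries without overlapping them, and ITGA2 fell by 0.46 on the log2 scale (SE 0.14, edgeR adjusted p = 0.0093). The call was lost without control replicate 3 (edgeR adjusted p = 0.0555) and without knockdown replicate 1 (0.0599). ITGA1, ITGA10 and ITGA11 had at most 10, 7 and 12 counts per library, and ITGA1 overlaps PELO, whose reads it could share.

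Alpha chains of leukocytes and of the ITGA4 and ITGA9 branch gave no call. ITGAE, the alpha chain of intraepithelial lymphocytes, was the exception in level, with 14.9 ± 1.74 CPM in control and 16.3 ± 0.911 CPM in knockdown (SD, n = 3 each), overlapping groups and a difference of 0.13 on the log2 scale (edgeR adjusted p = 0.26) that was -0.05 on log2(TPM + 1). The mitotic kinase gene HASPIN lies inside ITGAE on the other strand and rose from 2.70 to 4.47 CPM, and with strand use in the counting unstated the reads of the pair cannot be told apart. A pseudogene, ITGAEP1, could also share its reads. ITGAL and ITGAM had at most 6 and 1 counts. ITGA9 held 13, 15 and 17 counts across the controls, against 5, 12 and 17 after knockdown, with a 95% interval of the log2 fold change from -1.14 to 0.34, and ITGA4 had at most 10 counts.

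**Figure D2:**
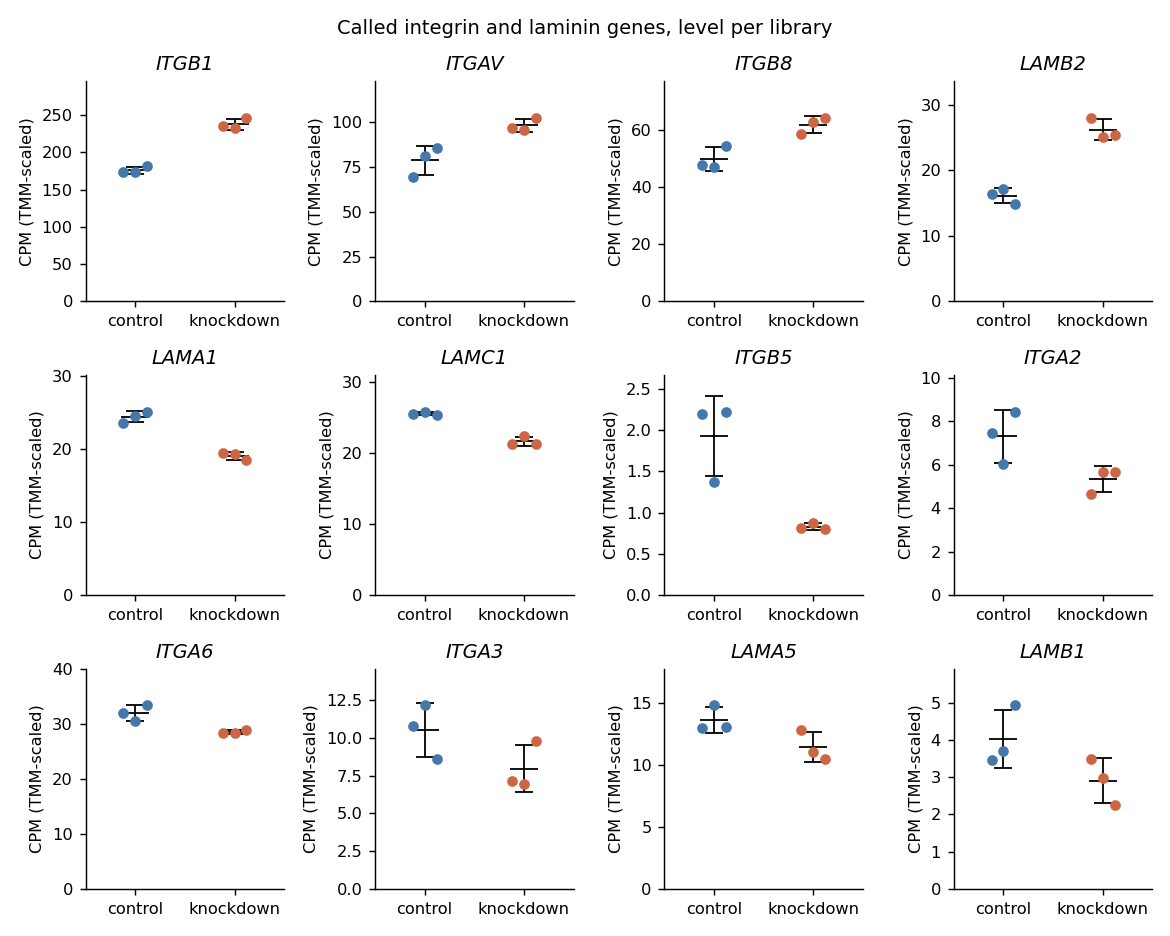
Level in CPM (y axes, starting at 0) of the 12 called members in each of 3 control (blue) and 3 knockdown (orange) libraries, with bars for mean and SD. The groups are separate in 10 panels and overlap for ITGA3 and LAMB1.

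Among the laminin genes, the beta chains diverged. LAMB2, a laminin beta chain of pial and vascular basement membranes, measured 16.4, 17.1 and 14.9 CPM across the controls, against 28.03, 25.1 and 25.5 CPM after knockdown. All knockdown libraries lay well above all controls, and the increase of 1.62-fold was the largest rise among the members (log2 fold change 0.70 ± 0.08 SE, edgeR adjusted p = 1.50e-07). LAMB1, the beta chain of early embryonic laminins, measured 3.45, 3.69 and 4.93 CPM across the controls, against 3.48, 2.97 and 2.26 CPM after knockdown. The ranges touched, since knockdown replicate 1 lay just above control replicate 1, and LAMB1 fell by 0.47 (SE 0.19, edgeR adjusted p = 0.0429). That call was lost without control replicate 3 (edgeR adjusted p = 0.234) and without knockdown replicate 2 (0.0858) or 3 (0.217), and also in the DESeq2 Wald test (0.132). Its log2 fold change was -0.30 without control replicate 3, -0.32 without knockdown replicate 3 and -0.49 without knockdown replicate 2. LAMB3 had 7 to 12 counts and LAMB4 at most 1. The LAMB2 pseudogene LAMB2P1 lies close by on chromosome 3, at chr3:49152859-49154401, and could share reads with LAMB2 at chr3:49121114-49133050.

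Alpha and gamma chains of the classical embryonic laminins were lower. LAMA1, the alpha chain of the laminin that is laid down first in the embryo, measured 23.7, 24.6 and 25.2 CPM across the controls, against 19.5, 19.4 and 18.5 CPM after knockdown. The groups were tight and separate, and LAMA1 fell by 0.36 on the log2 scale (SE 0.07, edgeR adjusted p = 0.000323). LAMC1, the gamma chain shared by most laminins, measured 25.5, 25.8 and 25.3 CPM across the controls, against 21.2, 22.4 and 21.3 CPM after knockdown, again without overlap. LAMC1 fell by 0.24 (SE 0.07, edgeR adjusted p = 0.007). LAMA5, a broadly expressed alpha chain of later basement membranes, measured 12.99, 14.8 and 13.1 CPM across the controls, against 12.8, 11.1 and 10.5 CPM after knockdown. Its highest knockdown library lay just below its lowest control, and LAMA5 fell by 0.25 (SE 0.10, edgeR adjusted p = 0.0429), a call lost without control replicate 2 (edgeR adjusted p = 0.146) and without knockdown replicate 2 (0.134) or 3 (0.186), as well as by the Wald test of DESeq2 (0.129) and without a filter on low counts (0.0508).

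The remaining laminin chains did not pass the test. LAMA4, an alpha chain of vessels and peripheral tissues, had 2.90 ± 0.267 CPM in control and 2.27 ± 0.394 CPM in knockdown (SD, n = 3 each), with a 95% interval of the log2 fold change from -0.76 to 0.04. Its mean TPM was 0.823 in control and 0.897 in knockdown, so the direction of its means differed between the count and the length-scaled values. LAMA3, an alpha chain of epithelial laminins, had 49 to 70 counts per library and a log2 fold change of 0.13 (95% interval -0.22 to 0.48). LAMA2, the muscle and Schwann cell alpha chain, had 13 to 27 counts and an interval from -0.78 to 0.39. LAMC3 had at most 2 counts.

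The calls of 5 members, ITGB1, LAMB2, ITGB5, LAMA1 and LAMC1, were kept under every alternative that tested them. The other 7 called members lost the call at least once, and no called member changed sign.

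**Figure D3:**
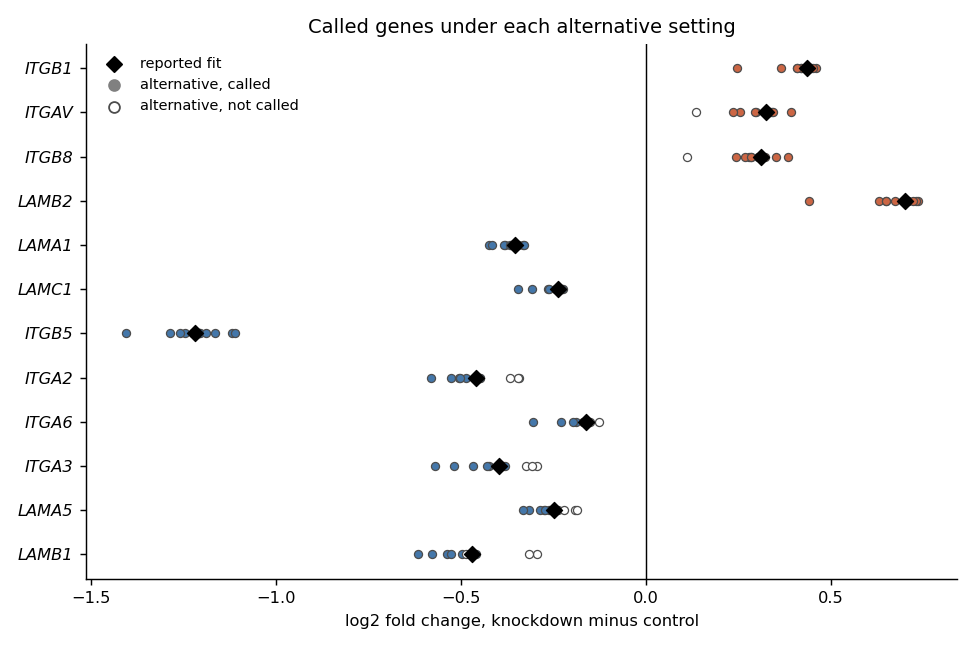
Log2 fold change (x axis, knockdown minus control) of the 12 called members under the reported fit (diamond) and each alternative fit (circles, open where the gene was not called). ITGB1, LAMB2, ITGB5, LAMA1 and LAMC1 have filled circles throughout.

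The make-up of each chain class was compared as shares of the summed TPM of that class, so that genes of different length could be set beside each other. With 3 libraries against 3, the exact two-sided permutation test cannot go below 0.1, and after adjustment over 20 shares no value lay below 0.2, so the shares are given as measurements. ITGB1 held 88.1 ± 0.678% of beta-chain TPM in control and 89.6 ± 0.396% in knockdown (SD, n = 3 each). ITGB8 held nearly all the rest, at 10.8 ± 0.464% and 10.0 ± 0.361%, so its share was lower in knockdown although its count rose. Among alpha chains ITGAV held the largest share, 39.0 ± 3.09% in control and 46.4 ± 0.244% in knockdown. ITGA6 followed at 18.5 ± 1.13% and 15.7 ± 0.521%, then ITGA7 at 14.2 ± 0.854% and 12.3 ± 0.601%, all without overlap between groups. ITGAE, at 13.3 ± 1.96% and 13.8 ± 0.223%, overlapped ITGA7 in control, and lay above it in each knockdown library.

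Within the laminins LAMB2 held 76.1 ± 2.80% of beta-chain TPM in control and 87.4 ± 1.27% in knockdown, and LAMB1 held 19.2 ± 4.28% and 9.58 ± 1.57%. LAMB2 was thus the main beta chain in both groups, and the separation between the 2 chains was wider in every knockdown library than in any control. LAMA1 held 50.8 ± 3.28% of alpha-chain TPM in control and 44.8 ± 0.392% in knockdown, with LAMA5 next at 23.9 ± 1.92% and 22.9 ± 1.97%. LAMA4 varied from 8.27 to 19.0% between libraries and overlapped between groups. LAMC1 held 99.0 ± 0.674% and 98.1 ± 0.542% of gamma-chain TPM. Summed TPM of beta integrins lay at 85.7 to 91.5 in control and 100.3 to 107.0 in knockdown, and that of alpha integrins at 47.7 to 50.9 and 44.7 to 48.5. Summed TPM of laminin beta chains lay at 5.77 to 6.24 in control and 7.16 to 8.0 in knockdown, that of laminin alpha chains at 7.56 to 8.07 and 5.95 to 6.15, and that of laminin gamma chains at 5.04 to 5.12 and 3.76 to 3.95. The groups overlapped for alpha integrins and were separate for the other 4 classes. On log2(TPM + 1) the median log2 fold change over all genes was -0.16, and these sums are not corrected for that shift. Lower summed TPM in knockdown is therefore not by itself a fall relative to other genes.

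**Figure D4:**
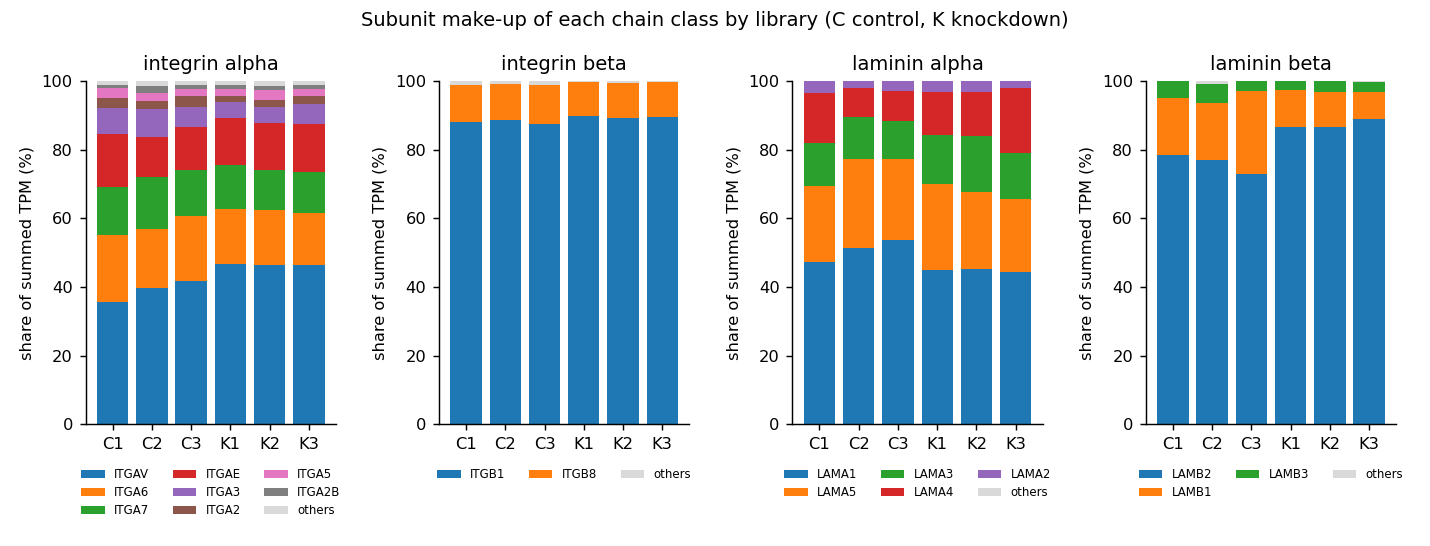
Share of the summed TPM of each chain class (y axis, percent) held by each member in the 6 libraries (C1 to C3 control, K1 to K3 knockdown). ITGB1 fills 87.4 to 89.9% of the beta integrins, and LAMB2 fills 73.0 to 78.4% of the laminin beta chains in control and 86.6 to 88.9% in knockdown.

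Since a shift of a chromosome segment would move neighbours together, the median log2 fold change of other tested genes starting within 2 Mb was taken for each member. It reached 0.2 in the member's own direction for 2 of the 12 called members. ITGAV, on chromosome 2, had 6 such neighbours with a median of 0.21, and LAMA1, on chromosome 18, had 7 with a median of -0.24. ITGB8 went against its surroundings, with a median of -0.40 over 6 neighbours, while the 79 neighbours of LAMB2 and the 7 of ITGB1 had medians of -0.03 and 0.11. The part of any chromosome segment in the values of ITGAV and LAMA1 was not tested.

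Adaptors, activators and membrane partners of integrins held genes called in both directions. Of 34 tested genes, 11 rose (32.4%) and 12 fell (35.3%), with a median of -0.03, while 5 were called higher and 15 lower on log2(TPM + 1). Over all tested genes 26.4% were called higher and 25.3% lower, so calls in this and the following lists are common among other genes too. TLN1, which encodes talin, the protein that binds the tail of beta chains and activates the receptor, rose from 35.8 ± 0.819 to 51.8 ± 2.18 CPM (log2 fold change 0.53, edgeR adjusted p = 1.01e-07). ACTN1, an actin crosslinker of adhesions, rose by 0.49 and CRKL, an adaptor of focal adhesions and reelin signalling, by 0.35 on the log2 scale. FYN, a kinase downstream of integrins and reelin, fell by 0.38 from 150 ± 6.21 to 115 ± 3.37 CPM.

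Of 14 tested basement membrane partners of laminin, 1 rose (7.14%) and 4 fell (28.6%), with a median of -0.12. The number called lower was 7 by library totals alone and 7 on log2(TPM + 1), but 2 in the DESeq2 Wald test and 2 without knockdown replicate 2, and the number called higher reached 3 without control replicate 3 and 2 without control replicate 2 or knockdown replicate 3. SPARC, a collagen-binding matricellular protein, rose from 67.6 ± 1.195 to 137 ± 2.42 CPM (log2 fold change 1.01, edgeR adjusted p = 2.07e-14). SMOC1, a SPARC relative, fell by 0.77 and AGRN, the laminin-binding proteoglycan agrin, by 0.59, the latter among neighbours on chromosome 1 with a median of -0.49. COL4A5, a collagen chain, fell by 0.28 and FBLN2, a fibulin, by 0.38. COL4A5 lost its call without knockdown replicate 2 (edgeR adjusted p = 0.121), and FBLN2 without control replicate 1 (0.0886) or 2 (0.0752) or knockdown replicate 2 (0.159) or 3 (0.0772), and both lost it in the DESeq2 Wald test (0.079 for COL4A5 and 0.143 for FBLN2). COL4A1, COL4A2, NID1 and HSPG2, the other main components of the sheet, were not called.

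Among dystroglycan, the other laminin receptors and the enzymes that glycosylate dystroglycan, 18 genes were tested. Of these, 4 rose (22.2%) and 9 fell (50%), with a median of -0.09. On log2(TPM + 1) 2 were called higher, and 5 were called lower in the DESeq2 Wald test or without knockdown replicate 3. DAG1, dystroglycan itself, had 91.4 and 94.8 CPM and was not called (edgeR adjusted p = 0.354). BCAM, a receptor for LAMA5-containing laminins, rose from 7.19 ± 0.769 to 15.5 ± 0.448 CPM (log2 fold change 1.11, edgeR adjusted p = 5.72e-09), and DPM1, of mannose donor synthesis, rose by 0.40. POMGNT1, a glycosyltransferase of the dystroglycan pathway, fell by 0.73 among chromosome 1 neighbours with a median of -0.35.

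Among other ligands of integrins, 5 of 23 tested genes rose (21.7%) and 9 fell (39.1%), with a median of -0.17, while 2 were called higher on log2(TPM + 1). TNR, the neuronal matrix protein tenascin R, fell from 3.64 ± 0.238 to 0.786 ± 0.164 CPM, and L1CAM, an axonal adhesion molecule, from 304 ± 20.8 to 210 ± 4.905 CPM (edgeR adjusted p = 1.42e-09). RELN, the reelin signal of early cortical neurons, fell from 20.5 to 3.98 CPM, and TNC, the radial glial tenascin C, fell by 1.06 on the log2 scale. These ligands were named as the called genes of smallest p and all fell, so the 5 that rose are not among them. Of 8 tested genes that handle latent TGF-beta, 1 rose (12.5%) and 2 fell (25%), with a median of -0.06. TGFB2, a growth factor of the family, fell by 1.12 from 4.59 ± 0.732 to 2.09 ± 0.152 CPM and TGFB3 by 0.50, while LTBP4 rose by 0.17. The TGFB3 call was lost without control replicate 1 (edgeR adjusted p = 0.052) or 2 (0.0772), and likewise without knockdown replicate 1 (0.076) or 2 (0.06), and in the DESeq2 Wald test (0.109). LTBP4 was lost without control replicate 1 (edgeR adjusted p = 0.0863) or 3 (0.0573), and likewise without knockdown replicate 1 (0.131) or 2 (0.0628), as well as by library totals (0.174) and in the DESeq2 Wald test (0.0688), and turned to -0.02 on log2(TPM + 1). Each of these list medians stands beside -0.0052 for all tested genes, and the percentages beside 26.4% called higher and 25.3% called lower.

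**Figure D5:**
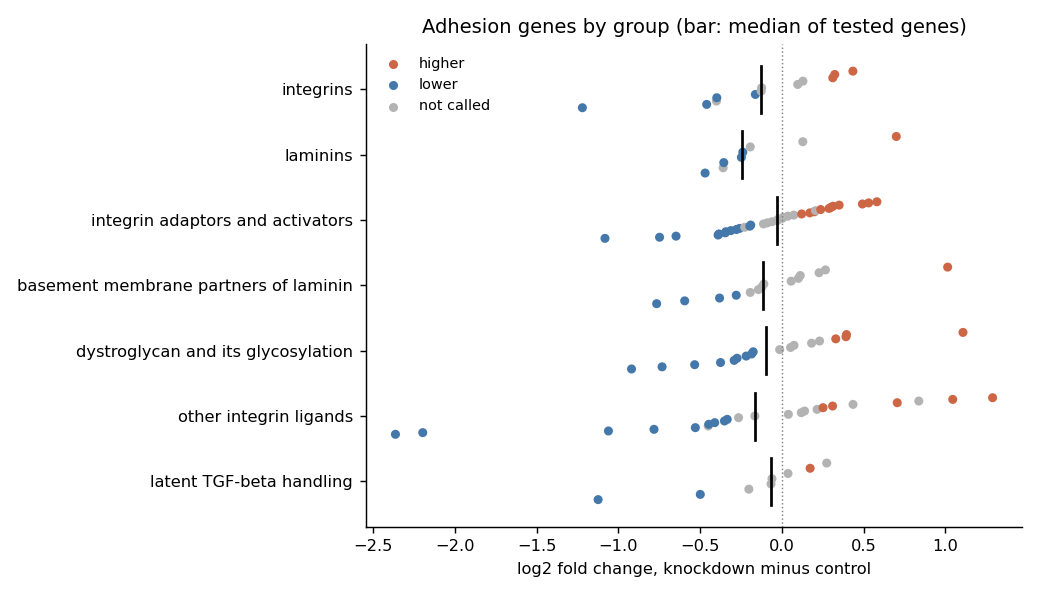
Log2 fold change (x axis, knockdown minus control) of each tested gene by group, with a bar at the group's median; orange marks genes called higher, blue lower and grey not called. Each group holds genes on both sides of 0, with medians between -0.24 for laminins and -0.03 for adaptors.

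Markers of cell types that also make integrins or laminins were followed beside the members, and their part in the members' values was not tested. Their calls stand beside 26.4% higher and 25.3% lower over all tested genes. Vascular endothelial markers summed to 1.38 to 2.25 CPM in control and 1.22 to 1.66 CPM in knockdown over 8 genes, none of which could be tested. PECAM1 and CDH5 had at most 1 count in any library, with means of 0.0451 and 0.0225 CPM in control and 0 in knockdown. EGFL7 and CLDN5 were the most abundant at 0.396 and 0.381 CPM in control. Fibroblast and mural markers summed to 28.3 to 35.0 CPM in control and 42.2 to 46.2 CPM in knockdown, with 3 of 8 tested higher and 1 lower, PDGFRB at 10.0 and 16.03 CPM and TAGLN at 7.68 and 6.54 CPM. Of these, LUM rose from 0.484 to 6.81 CPM, RGS5 rose from 3.03 to 4.201 CPM and ACTA2 fell from 1.31 to 0.157 CPM. DCN and TBX18 had a mean of 0 CPM in control and means of 0.09 and 0.0227 CPM in knockdown. The collagen genes COL1A1 (2.25 and 2.61 CPM) and COL1A2 (5.38 and 5.91 CPM) were not called. Leukocyte and microglia markers summed to 5.40 to 5.65 and 12.6 to 12.96 CPM, a difference held by AIF1 (2.93 and 10.5 CPM). CD68 stood at 1.86 and 1.80 CPM and PTPRC at 0 and 0.0225 CPM.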

How the data were processed

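Bulk RNA of 3 control and 3 FABP7 knockdown organoid libraries was analysed, and the 2 single-cell libraries were not analysed here. The deposited table gave, per the file headers, an estimated (expected) count, FPKM, TPM and a normalized read count, a signal, for each gene and library. Of the deposited expected counts, 12.6 to 14.9% per library were not whole. Reads were placed on hg38, per the submitters' processing notes; for aligner, counter, annotation and strand the entry is "not given in the sources used here". The protocol in the labels describes a single-cell kit for every sample, so the bulk preparation is not stated.

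Counts were rounded and tested with edgeR 4.0.16 in R 4.3.3 (TMM, filterByExpr with minimum count 10, robust quasi-likelihood F-test, Benjamini-Hochberg adjustment over all 13468 tested genes, threshold 0.05). The procedure was also run on simulated counts with independent libraries and few changed genes. Such a run cannot show the error rate in these data, where 51.7% of genes were called and replicates may be technical. DESeq2 1.42.0 and limma 3.58.1 served as alternatives, together with other scalings and filters, each library left out in turn and the replicate number as a block. The limma-trend alternative used log2(TPM + 1) with genes of at least 1 TPM in 3 libraries. Intervals are 95% and come from the edgeR fit, so they include the spread between libraries, while floors cover counting error only. Every member enters the counts, and a few genes that the naming rule selects are not reported here. From each companion list up to 4 called genes of smallest p are named, all where 5 or fewer were called, and the 2 most abundant of each list of other cell types. Members and lists were chosen with earlier results of these data known. Promoters came from RefSeq by gene identifier.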

Additional observations from a re-analysis of the deposited data

How the results depend on the processing

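The number of members called was 12 as reported, 9 in the DESeq2 Wald test, 10 without a filter on low counts, 11 with the replicate number as a block and 9 on log2(TPM + 1), where 13 members were tested in place of 20 and ITGB5 and LAMB1 were not among them. Members called higher numbered 2 in place of 4 on log2(TPM + 1), and members called lower 5 in place of 8 in the DESeq2 Wald test. With single libraries left out, members called ranged from 8 to 11, members called lower from 4 to 7, members past 1.5-fold from 0 to 1 (1 without control replicate 2), and genes called from 5888 to 6983. Members past 1.5-fold numbered 1 when scaled by library totals alone. Called members whose neighbours had a median of at least 0.2 in their own direction numbered 0 within 5 Mb, against 2. LTBP4 reversed to -0.0186 on log2(TPM + 1) (limma adjusted p = 0.814). The causes were not tested. Calls over all genes were 3557 higher and 3409 lower, but 2653 and 4390 by library totals, where the median log2 fold change was -0.07, and 1475 and 5694 on log2(TPM + 1), where it was -0.16.

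Deviations of same-numbered libraries correlated at 0.0826, 0.0230 and 0.0847, and those of differently numbered libraries at -0.147 to 0.0730. With 3 libraries a group these values cannot show whether same-numbered libraries were paired. The replicate block gave 7114 called genes against 6966, LAMB1 lost its call there (adjusted p = 0.0581), and not every library correlated best with its own number. With 3 libraries a group, and with 16 members under the filter, differences in the low members were not detectable at this depth.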

Other observations

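Other marker lists held values outside the comparisons above. Of 6 tested neural crest and Schwann cell markers 3 rose and 2 fell, where 26.4% of all tested genes rose and 25.3% fell. PMEL, a pigment cell gene, rose from 1.96 ± 0.422 to 12.4 ± 0.494 CPM, while SOX10, a neural crest transcription factor, fell from 1.79 ± 0.306 to 0.450 ± 0.108 CPM (SD, n = 3 each). MITF rose from 1.67 to 3.06 CPM. Of 7 tested choroid plexus and epithelial markers 2 rose, KRT8 and KRT18, and GRHL2 fell from 21.2 ± 1.42 to 15.9 ± 0.564 CPM, with summed levels of 31.9 to 34.8 and 29.5 to 32.3 CPM, EPCAM at 2.52 and 2.92 CPM, and TTR, the choroid plexus transthyretin gene, at 0.0418 and 0.0222 CPM.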
